A study of Danio rerio with 20 samples.

Results

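Livers of zebrafish larvae that carry a deletion in as3mt were compared with and without sodium arsenite, across every gene in the deposited count tables. The comparison sets 5 libraries of exposed mutants against 5 of unexposed mutants, 10 of the 20 libraries in the series, and members were taken by the genotype and dose in their sample titles. Exposed mutants received 1 mM sodium arsenite (iAs) from 96 h after fertilization, and unexposed mutants received 0 mM. Fish of both mutant groups were as3mt-/-, homozygous for an 8 bp CRISPR deletion in exon 3, bred by crossing homozygous F2 fish on the ABNYU wild-type background. All larvae were kept at 20 embryos per well and dissected at about 119 h, 5 days after fertilization. A library was made from poly(A) RNA of 12 to 15 pooled livers, so each value is that of a pool and not of a fish. The sample titles end in cl1 to cl5, the same 5 tags in each group, and the labels do not say what the tag marks or whether pools came from separate clutches, so p-values measure the spread between these pools. The other 10 libraries, exposed and unexposed wild type of the TAB5 strain, enter the shared estimate of spread and the comparison of the 2 responses, where genotype and strain cannot be told apart.

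The enzyme encoded by as3mt moves methyl groups from S-adenosylmethionine onto inorganic arsenic, which in mammals eases its excretion, and the liver is its main site. Trivalent arsenic binds cysteine thiols, including those of Keap1, the adaptor that marks the transcription factor Nrf2 for destruction. Nrf2 drives genes of glutathione synthesis, thiol reduction and NADPH supply, and heat shock factors drive chaperones when proteins unfold. Hepatocytes also make most plasma proteins, bile acids and cytochromes P450, and their transcripts dominate liver RNA.

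The targeted gene, listed as AS3MT, held 18.7, 11.9, 10.16, 8.62 and 16.2 CPM in exposed mutants, against 80.9, 61.8, 81.1, 63.8 and 75.7 CPM in unexposed mutants. CPM are counts scaled to a common library size after TMM normalization, which sets the bulk of genes level between libraries. No exposed pool reached any unexposed pool, and the log2 change was -2.47 ± 0.23 (± SE of the fit here and below; edgeR adjusted p = 1.38e-08; exact 2-sided permutation p = 0.0079, the smallest that 5 against 5 allow). A deletion of 8 bp leaves most of the transcript countable, so its counts do not test for loss of the enzyme.

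Totals were 32805944 to 40961344 counts in exposed and 27505029 to 41248978 in unexposed mutant libraries. The first principal component of the 10 libraries held 73.4% of the variance and separated them by exposure, at 73.1 to 103.4 in exposed and -97.0 to -82.4 in unexposed pools. Unexposed pool 1 stood apart on the second component, at 61.3 with all others between -32.6 and 13.2, and the libraries with most transcripts of the exocrine pancreas were pool 1 of each group. Of 16389 genes tested, 61.8% were called, meaning an edgeR adjusted p under 0.05: 31.5% were called up and 30.3% down. Counts of list members below are to be read beside these shares. All 5 exposed pools lay above all 5 unexposed pools for 25.1% of tested genes, and below them for 23.1%. A lack of overlap is thus common here and does not mark out a gene. Many changes were large, with 2690 genes (16.4%) called up and 2966 (18.1%) called down past 2-fold, 292 up and 154 down past 16-fold, and 120 up and 25 down past 64-fold. All directions are relative to the bulk of genes, whose median was -0.00 under TMM. With library sizes from total counts alone it was 0.83, and 9842 genes were called up and 1962 down.

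**Figure D1:**
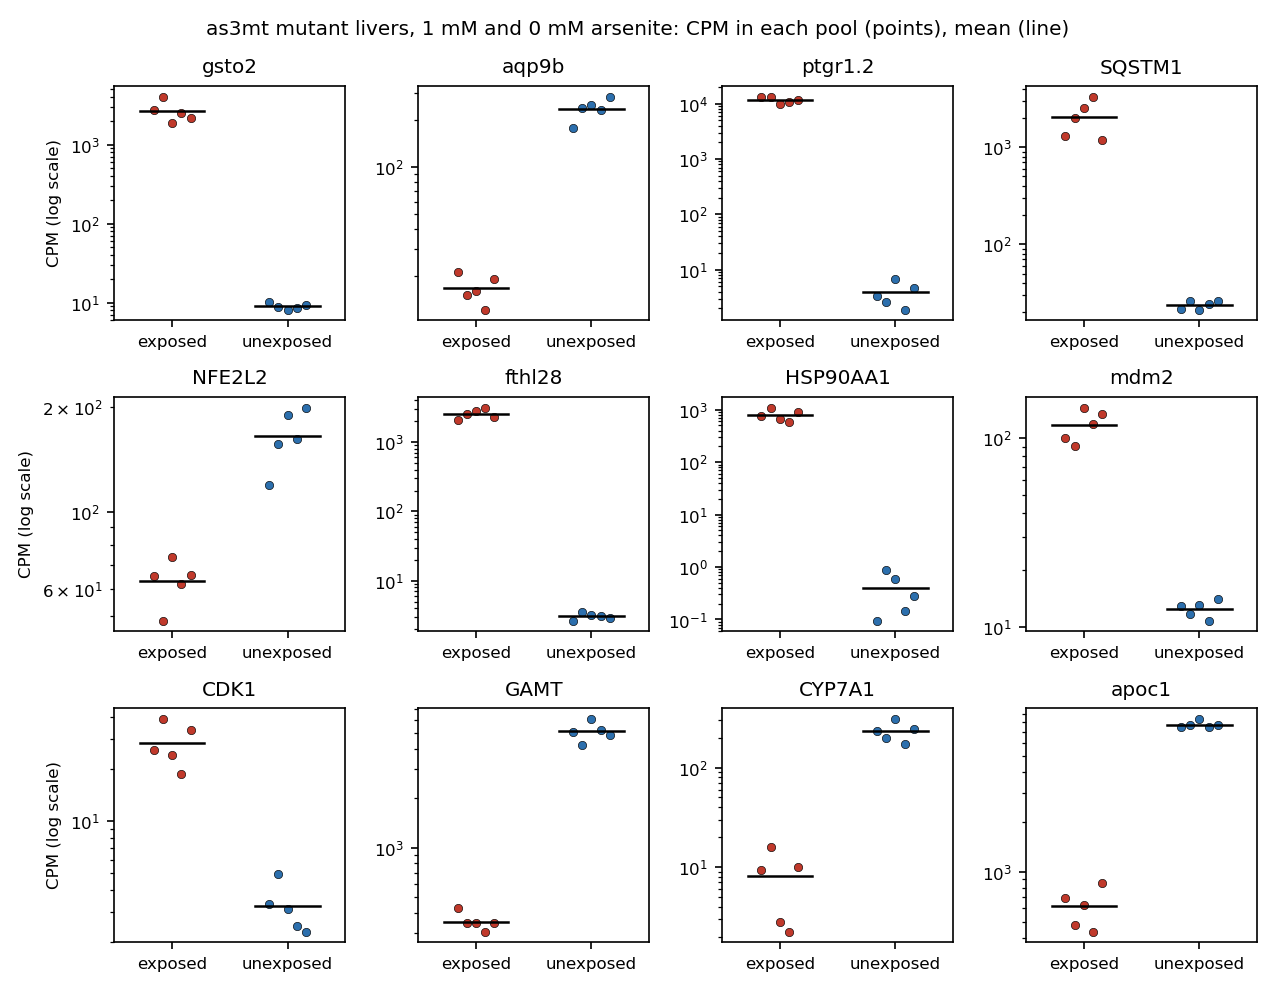
CPM on a log scale for 12 genes in the 5 exposed (red, left) and 5 unexposed (blue, right) mutant pools, with the mean as a line. In each of the 12 panels the groups do not overlap, as holds for 25.1% (exposed above) and 23.1% (exposed below) of all tested genes. The panels for gsto2, ptgr1.2, SQSTM1, fthl28, HSP90AA1, mdm2 and CDK1 show higher, and those for aqp9b, NFE2L2, GAMT, CYP7A1 and apoc1 lower, values in exposed pools.

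Among genes that handle arsenic, omega-class glutathione transferases and several export pumps rose, while the arsenite channel gene aqp9b fell. Of 24 tested members of the arsenic handling list, 8 rose (33.3%, against 31.5% of all tested genes) and 11 fell (45.8%, against 30.3%), so the share that rose was near that of all genes. The list's median log2 change was -0.73, which turns to 0.09 with total counts. The omega transferase gsto2, whose human counterparts reduce methylated arsenic, held 2716, 4037, 1857, 2499 and 2141 CPM in exposed mutants, against 10.0, 8.91, 8.11, 8.42 and 9.19 CPM in unexposed mutants. Its paralogue gsto1 held 125, 124, 84.2, 71.2 and 91.5 CPM in exposed pools and 1.32, 0.505, 0.496, 0.259 and 2.91 CPM in unexposed pools. Both separated the groups in every pool, with log2 changes of 8.21 ± 0.38 and 6.48 ± 0.48 (edgeR adjusted p = 7.35e-13 and 5.55e-10; 7.34 for gsto1 without unexposed pool 5). The conjugate pump abcc2, which sends glutathione conjugates into bile, rose by 1.59 ± 0.11, and abcc3 and ABCC4, which work at the blood side of mammalian hepatocytes, rose by 3.32 ± 0.33 and 3.14 ± 0.49. The aquaglyceroporin aqp9b, of the family that admits arsenite to hepatocytes, held 21.1, 15.1, 15.97, 12.1 and 19.1 CPM in exposed mutants, against 179, 241, 252, 233 and 284 CPM in unexposed mutants. Its fall by 3.83 ± 0.21 left no overlap (edgeR adjusted p = 6.04e-12), and aqp10a fell by 1.74 ± 0.33.

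Genes that make and renew the methyl donor S-adenosylmethionine mostly fell. MAT1A, the liver synthase, fell by 1.22 ± 0.15, MAT2A (ENSDARG00000040334) by 2.65 ± 0.17, and AHCY, which clears the product of every methyl transfer, by 1.65 ± 0.12 on the log2 scale (edgeR adjusted p = 7.71e-07, 1.08e-10 and 3.35e-10). A further synthase gene, mat2al, went the other way and rose by 1.45 ± 0.23. Of 41 tested genes of the methionine cycle, creatine and folate, 3 rose and 25 fell, with a median of -1.22 (-0.39 with total counts). BHMT, which remethylates homocysteine, held 884, 816, 549.6, 492 and 833 CPM in exposed pools, against 4572, 5289.8, 4210.3, 3774 and 4428 CPM in unexposed pools. The glycine methyltransferase GNMT did not pass (log2 change 0.06 ± 0.10, edgeR adjusted p = 0.654), with overlapping levels of 401 to 479.9 CPM in exposed and 379 to 492 CPM in unexposed pools. GLDC, of the glycine cleavage system, fell by 3.41 ± 0.21 and GAMT, which makes creatine and is a major user of methyl groups in mammals, by 3.86 ± 0.16. MTHFD1L, a mitochondrial folate enzyme, held 23.2, 45.1, 40.6, 50.6 and 37.3 CPM in exposed pools, against 0.0945, 0.144, 0.166, 0.0862 and 12.6 CPM in unexposed pools. The groups did not overlap, but unexposed pool 5 lay far above the other 4 unexposed pools (log2 change 3.86 ± 1.08, edgeR adjusted p = 0.00408), and the change was 8.31 without it.

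Members of the Nrf2 list rose more often than they fell. Of 76 tested, 37 rose (48.7%, against 31.5% of all tested genes) and 22 fell (28.9%, against 30.3%), with a median of 0.55 (1.38 with total counts), and the list took 5.55 to 5.89% of all counts in exposed pools, against 1.23 to 1.35% in unexposed pools. Among its regulators, NFE2L2, which encodes Nrf2, held 65.2, 48.5, 73.8, 61.9 and 65.8 CPM in exposed mutants, against 119, 156, 190.4, 162 and 199 CPM in unexposed mutants. Every exposed pool was lower (log2 change -1.39 ± 0.15, edgeR adjusted p = 9.45e-08). KEAP1 rose by 2.62 ± 0.15 and its paralogue keap1a by 0.76 ± 0.10. SQSTM1, an autophagy receptor that binds Keap1 and is itself an Nrf2 target in mammals, held 1316, 1999, 2510.5, 3309 and 1186 CPM in exposed mutants, against 21.7, 25.9, 21.2, 24.1 and 26.4 CPM in unexposed mutants. Its log2 change was 6.43 ± 0.41 (edgeR adjusted p = 7.27e-11), and among exposed pools 1 and 5 were lowest and pool 4 highest.

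In glutathione synthesis, 7 of 12 genes rose and 3 fell, with the role's median at 2.94. The cystine importer slc7a11 had 3100 counts over the exposed pools and 22 over the unexposed pools. The synthetase GSS held 132, 148, 155, 160.5 and 145 CPM in exposed pools, against 4.96, 7.46, 6.04, 5.49 and 4.66 CPM in unexposed pools. GSR, which reduces glutathione disulfide, rose by 4.37 ± 0.17, the ligase subunits GCLM and GCLC by 3.85 ± 0.19 and 2.04 ± 0.13, and the glutathione-degrading enzyme CHAC1 fell by 3.09 ± 0.61 (edgeR adjusted p = 7.01e-14, 2.62e-12, 4.88e-11 and 1.81e-04). Exposed pools held 150.1, 66.1, 39.5, 29.2 and 119 CPM of CHAC1, against 1444, 350.1, 404, 171 and 1061 CPM in unexposed pools. Unexposed pools 1 and 5 lay far above the other unexposed pools. Among the transferases, 6 of 13 rose (46.2%, against 31.5% of all tested genes) and 4 fell (30.8%, near the 30.3% of all). The pi-class gene gstp1.1 held 184, 444, 112, 361 and 189.8 CPM in exposed and 0.142, 0.0721, 0.414, 0.144 and 0.245 CPM in unexposed pools. The related copies gstp1.1 and gstp1.2 may share reads, so the split of counts between them is uncertain.

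In the thioredoxin and peroxide role, 7 of 20 genes rose and 8 fell, shares of 35% and 40% beside 31.5% and 30.3% of all genes, and the median of -0.08 turns to 0.75 with total counts. The thioredoxin gene txnb, outside the list, held 2950.0, 2966, 3432, 3169 and 3329.5 CPM in exposed mutants, against 35.1, 49.8, 33.3, 26.3 and 54.5 CPM in unexposed mutants. All exposed pools lay above all unexposed pools (log2 change 6.31 ± 0.21, edgeR adjusted p = 4.99e-15). Within the list the peroxiredoxin prdx1 rose by 5.08 ± 0.22, while the separate gene listed as PRDX1 fell by 1.44 ± 0.12. The mitochondrial superoxide dismutase SOD2 rose by 1.02 ± 0.12 and the thioredoxin gene TXN by 0.79 ± 0.09. Catalase, CAT, fell by 1.87 ± 0.16, and the lipid peroxidase gpx4a held 186, 92.1, 249.7, 227 and 184 CPM in exposed pools, against 3401, 2932, 2351, 2476 and 2356 CPM in unexposed pools. That fall of gpx4a, by 3.85 ± 0.24, was the largest of the 20 genes (edgeR adjusted p = 4.75e-11). Sulfiredoxin SRXN1, a textbook Nrf2 target, did not pass at 0.16 ± 0.30 (edgeR adjusted p = 0.656), at 1.66 to 2.31 CPM in exposed and 0.888 to 1.99 CPM in unexposed pools.

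Of 17 genes of NADPH and quinone enzymes, 9 rose (52.9%, against 31.5% of all tested genes) and 5 fell (29.4%, near the 30.3% of all). The pentose phosphate enzyme PGD rose by 4.04 ± 0.15, and the prostaglandin reductase ptgr1.2 held 12952, 13311, 9933, 10830.0 and 11692 CPM in exposed mutants, against 3.36, 2.67, 6.87, 1.90 and 4.72 CPM in unexposed mutants. It was the third most abundant transcript of exposed livers, with 1.70% of all counts in exposed pools and 0.000313% in unexposed pools. The quinone reductase NQO1, another textbook Nrf2 target, held 61.3, 41.5, 57.6, 48.9 and 69.7 CPM in exposed pools, against 89.2, 80.1, 92.8, 85.0 and 94.6 CPM in unexposed pools. It fell by 0.66 ± 0.17 (edgeR adjusted p = 0.00161), a direction that turns to 0.17 with total counts. The ubiquinone reductase AIFM2 and the related aifm4 rose by 3.61 ± 0.10 and 9.06 ± 0.26.

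Genes of metal and iron handling rose more often than they fell, with 10 of 21 up, 3 down and 8 not passed (median 0.39). The ferritin heavy chain genes fthl28 and fthl31 were barely counted without arsenite: fthl28 held 2052, 2558, 2822, 3135 and 2281 CPM in exposed mutants, against 2.65, 3.53, 3.23, 3.08 and 2.91 CPM in unexposed mutants. For fthl31 the values were 3201, 2881, 3766, 4275 and 3045 CPM in exposed and 6.29, 11.04, 8.19, 8.30 and 10.3 CPM in unexposed pools. Both rises were past 64-fold in the fit (log2 changes 9.70 ± 0.49 and 8.60 ± 0.34), though near-identical ferritin copies may share reads. The iron exporter SLC40A1 rose by 2.17 ± 0.48 (2.75 without unexposed pool 4), the iron carrier tfa fell by 1.91 ± 0.22, and heme oxygenase HMOX1 did not pass (1.16 ± 0.59, edgeR adjusted p = 0.0953). The iron hormone gene hamp held 22.8, 33.7, 42.8, 51.4 and 26.4 CPM in exposed pools, against 50.1, 157, 6.12, 4.94 and 295 CPM in unexposed pools. Unexposed pools spread from 4.94 to 295 CPM and straddled the exposed pools, and hamp did not pass with all libraries (log2 change -1.54 ± 0.71, edgeR adjusted p = 0.0650). It passed without unexposed pool 3 or 4, at -1.84 and -1.85, and its estimate was -0.62 without unexposed pool 5.

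Of 11 genes of sulfide and cysteine use, 2 rose and 8 fell (median -0.84, -0.01 with total counts). The 2 that rose were the mitochondrial sulfide oxidases SQOR, by 4.43 ± 0.10, and ETHE1, by 0.99 ± 0.10. Enzymes that turn cysteine to taurine went the other way. CDO1 held 98.1, 85.8, 43.8, 37.98 and 46.8 CPM in exposed pools, against 305, 293, 258, 231 and 276 CPM in unexposed pools, and CSAD fell by 4.26 ± 0.28 (edgeR adjusted p = 9.33e-08 and 9.60e-11).

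**Figure D2:**
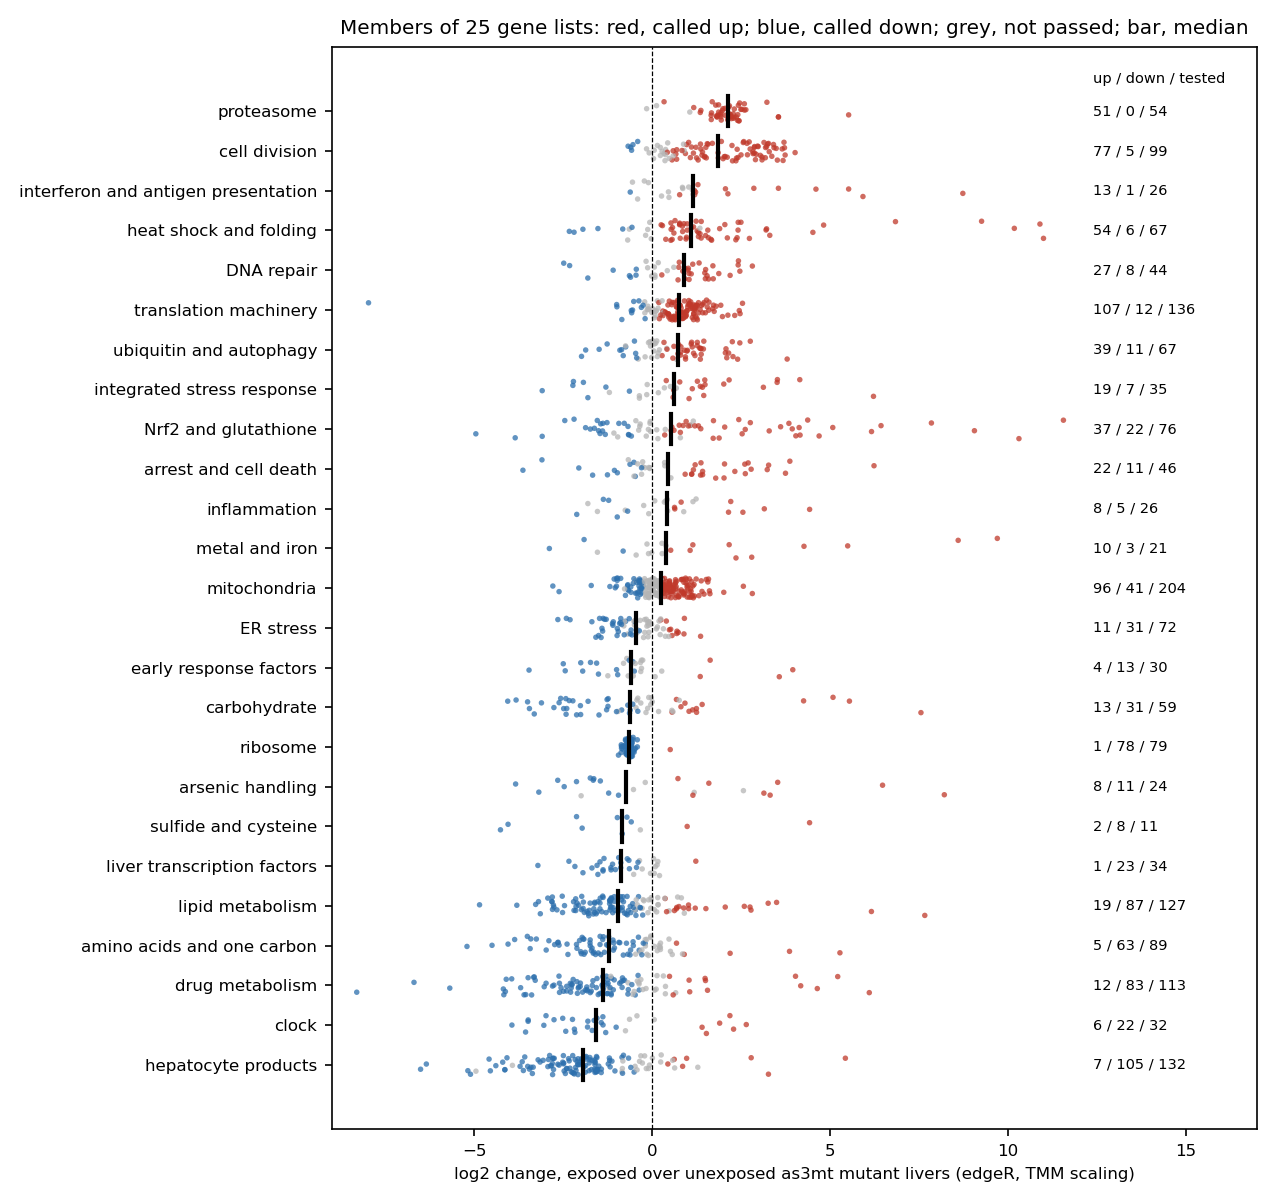
Log2 change, exposed over unexposed mutants, of each tested member of 25 gene lists (points; red called up, blue called down, grey not passed), with the list median as a black bar and the median of all tested genes as a dashed line. Lists run by median from the proteasome at 2.14 to hepatocyte products at -1.94, and the numbers at the right give members up, down and tested.

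Cytosolic chaperones mostly rose, and by far more for the inducible than for the constitutive copies of HSP90 and HSP70. The heat shock list held 67 tested genes, with 54 up and 6 down (median 1.103). Their share of total counts was 2.63 to 3.07% in exposed and 0.892 to 1.07% in unexposed pools. Part of that rise rests on the scale: HSP90AB1 averaged 0.656% in exposed and 0.307% in unexposed pools, though its log2 change under TMM was 0.26. The inducible HSP90AA1 held 762, 1094, 652, 587 and 913 CPM in exposed mutants, against 0.0945, 0.866, 0.579, 0.144 and 0.276 CPM in unexposed mutants. Its constitutive relative HSP90AB1 held 4241, 4038, 4849.9, 4904 and 4604 CPM in exposed pools, against 3720.0, 3302, 4082, 3748 and 4116 CPM in unexposed pools. The inducible gene separated the groups by orders of magnitude, while the constitutive one overlapped and changed by 0.26 ± 0.10 (edgeR adjusted p = 0.0363; 0.061 to 0.099 in the fits without exposed pool 3, 4 or 5 or unexposed pool 1, 2 or 4, where it did not pass).

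The HSP70 family showed the same split. The 2 genes listed as HSPA8 changed by 6.84 ± 0.47 (ENSDARG00000037403) and 0.56 ± 0.10 (ENSDARG00000068992), and the second held 5607 to 6582 CPM in exposed and 3423 to 4414 CPM in unexposed pools. The inducible hsp70l held 63.4, 67.0, 36.5, 62.8 and 35.8 CPM in exposed pools, against 0, 0, 0, 0 and 0.184 CPM in unexposed pools, where only pool 5 had any count. Copies of HSP70 are near identical, so counts may be shared between them. The J protein dnajb1b rose by 4.82 ± 0.46 (5.49 without unexposed pool 1) and the small heat shock protein HSPB1 by 2.50 ± 0.19. HSPB1 does not stand for its role: of 11 small heat shock and factor genes, 4 rose and 4 fell, 36.4% each beside 31.5% and 30.3% of all. Only 1 of them, HSPB1, was called up past 2-fold, and the role's median of -0.12 turns to 0.68 with total counts. All 14 tested genes of the CCT chaperonin and its partner prefoldin rose, with a median of 1.36, among them CCT5 by 1.38 ± 0.09. The mitochondrial chaperonin HSPD1 rose by 0.53 ± 0.12. The factor hsf1, which drives these genes, rose by 0.78 ± 0.26 and HSF2 fell by 1.94 ± 0.16 (edgeR adjusted p = 0.0131 and 2.00e-09). BAG3, a co-chaperone usually induced with HSP70, did not pass at -0.64 ± 0.31 (edgeR adjusted p = 0.0764). Its levels were 11.2, 8.75, 8.29, 8.05 and 8.52 CPM in exposed and 22.6, 10.5, 14.2, 4.42 and 18.3 CPM in unexposed pools, and without unexposed pool 4, the lowest, it passed as a fall by 0.87.

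Nearly all genes of the proteasome rose, and those of ubiquitin and autophagy rose more often than they fell, with 39 of 67 up, 11 down and 17 not passed. In the proteasome list 51 of 54 genes rose and the other 3 did not pass (median 2.14), including all 15 of the 20S core and all 25 of the regulatory particle. The list's share of counts was 0.877 to 1.16% in exposed pools, against 0.129 to 0.152% in unexposed pools. PSMD1, a scaffold of the regulatory particle, held 277, 327, 303, 371 and 352 CPM in exposed and 51.0, 70.0, 64.0, 49.2 and 61.9 CPM in unexposed pools. The assembly factor POMP rose by 1.99 ± 0.12 and the unfolding ATPase VCP by 2.06 ± 0.12. Ubiquitin gene UBB held 275, 310.2, 356, 347 and 376 CPM in exposed pools, against 238, 200.2, 175, 156 and 220.1 CPM in unexposed pools. The groups did not overlap, and the rise was smaller, at 0.75 ± 0.18 (edgeR adjusted p = 0.00102). Of 29 autophagy genes, 15 rose and 4 fell, and of 25 lysosome genes, 16 rose and 5 fell. ATG14, of the kinase complex that starts autophagosomes, rose by 2.099 ± 0.16, and its partner BECN1 fell by 0.43 ± 0.12, which turns to a rise of 0.41 with total counts. The lysosomal protease CTSD held 407, 376, 396, 410.3 and 341 CPM in exposed pools, against 99.4, 98.0, 79.8, 73.9 and 83.6 CPM in unexposed pools.

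Under TMM the endoplasmic reticulum did not follow the cytosol. Of 72 genes of its chaperones, sensors and export coats, 11 rose (15.3%, against 31.5% of all tested genes) and 31 fell (43.1%, against 30.3%). The median of -0.45 turns to 0.38 with total counts. Their share of all counts was higher in every exposed pool, at 0.685 to 0.769%, against 0.536 to 0.680% in unexposed pools, so the direction rests on the scale. HSPA5, the lumenal HSP70, held 496, 400.2, 406, 445 and 356 CPM in exposed pools, against 305, 296, 314, 133 and 470.2 CPM in unexposed pools. The groups overlapped and HSPA5 did not pass (0.47 ± 0.41, edgeR adjusted p = 0.327), nor did the lumenal HSP90B1 (-0.69 ± 0.47, edgeR adjusted p = 0.214). XBP1, the factor spliced in the unfolded protein response, fell by 1.29 ± 0.18 and the disulfide isomerase P4HB by 1.41 ± 0.15. The disulfide oxidase ERO1A was the one member of the list called up past 2-fold, at 1.36 ± 0.33 (edgeR adjusted p = 0.00133).

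Genes of the integrated stress response, the translation block that favours ATF4, were mixed, with more rises than falls. Of 35 tested, 19 rose (54.3%, against 31.5% of all tested genes) and 7 fell (20.0%, against 30.3%), with a median of 0.61. The list's mean log2 CPM overlapped, at 4.43 to 4.76 in exposed and 3.42 to 4.51 in unexposed pools, where pool 5 was highest. Its share of counts also overlapped, at 0.272 to 0.327% in exposed and 0.291 to 0.382% in unexposed pools. ATF3 held 15.3, 12.2, 20.1, 15.3 and 14.2 CPM in exposed mutants, against 0.804, 0.757, 0.538, 0.316 and 1.87 CPM in unexposed mutants. It changed by 4.15 ± 0.55 (edgeR adjusted p = 1.59e-06) without overlap. DDIT3, which encodes the death factor CHOP, rose by 1.48 ± 0.27 and asparagine synthetase ASNS by 0.61 ± 0.15. The transcript of atf4b did not pass at 0.35 ± 0.16 (edgeR adjusted p = 0.0738), but passed without exposed pool 5 or unexposed pool 1 or 5, at 0.43 to 0.44. The pseudokinase TRIB3 did not pass (0.18 ± 0.48, edgeR adjusted p = 0.762), and pck2 fell by 2.23 ± 0.18. The largest fall of the list was a log2 change of -3.09, that of CHAC1 described above.

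Early response factors, which mark acute signalling, fell more often than they rose, with 4 of 30 up and 13 down (median -0.59, 0.26 with total counts). The factor egr1 held 0.800, 2.27, 10.5, 6.95 and 5.99 CPM in exposed pools, against 22.7, 13.7, 41.7, 138 and 75.9 CPM in unexposed pools, a change of -3.46 ± 0.84 (edgeR adjusted p = 0.00129; -2.86 without unexposed pool 4). FOS spread more widely, at 1.82, 1.81, 7.43, 3.60 and 5.88 CPM in exposed and 5.39, 2.81, 2.77, 46.7 and 24.3 CPM in unexposed pools. Its call (-2.005 ± 0.85, edgeR adjusted p = 0.0470) was lost when exposed pool 1, 2, 4 or 5 or unexposed pool 4 or 5 was left out, and without unexposed pool 4 the change was -1.11. FOSL1, another AP-1 subunit, rose by 3.58 ± 0.63.

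Genes of cell cycle arrest and cell death rose more often than they fell. Of 46 tested, 22 rose (47.8%, against 31.5% of all tested genes) and 11 fell (23.9%, against 30.3%), with a median of 0.44. The ubiquitin ligase mdm2, which DNA damage induces, held 100.5, 91.1, 145, 119 and 134 CPM in exposed mutants, against 12.9, 11.8, 12.99, 10.8 and 14.1 CPM in unexposed mutants, a rise by 3.24 ± 0.16 (edgeR adjusted p = 2.41e-12). Cyclin G1, CCNG1, held 1357, 1159.9, 1734, 1634 and 1486 CPM in exposed pools, against 338, 321, 343, 309.9 and 485 CPM in unexposed pools. The cell cycle inhibitor cdkn1a rose by 0.93 ± 0.28 (edgeR adjusted p = 0.00679). Among genes of apoptosis, 12 of 23 rose (52.2%) and 6 fell (26.1%, near the 30.3% of all tested genes). BAX, which permeabilises mitochondria, rose by 2.62 ± 0.14. The opposite direction was taken by diabloa, a mitochondrial activator of caspases, which fell by 3.63 ± 0.29.

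Genes of mitosis rose nearly without exception, while the 5 replication genes that fell were GMNN and 4 subunits of the MCM helicase. Of 49 cyclin and mitosis genes, 48 rose and 1 did not pass (median 2.91), and of 50 DNA replication genes, 29 rose and 5 fell (median 0.89). CDK1, the mitotic kinase, held 26.0, 39.3, 24.4, 18.9 and 33.6 CPM in exposed mutants, against 3.31, 4.94, 3.10, 2.47 and 2.30 CPM in unexposed mutants. Its partner CCNB1 rose by 3.25 ± 0.29, the kinetochore gene spc24 by 4.02 ± 0.31 and the proliferation marker mki67 by 2.25 ± 0.25. Levels stayed low even after exposure, with 14.7 to 26.3 CPM of CCNB1 in exposed pools and 1.16 to 3.25 CPM in unexposed pools. In replication, the sliding clamp PCNA rose by 1.29 ± 0.21, the ribonucleotide reductase RRM1 by 2.00 ± 0.29 and GINS4, of the helicase's partner complex, by 1.95 ± 0.21. The helicase subunit MCM5 held 6.97, 10.1, 6.06, 8.73 and 8.26 CPM in exposed pools, against 9.03, 16.7, 16.2, 11.2 and 10.9 CPM in unexposed pools. MCM5 fell by 0.67 ± 0.20 and MCM2 by 0.60 ± 0.18 (edgeR adjusted p = 0.00624 and 0.00706), changes that turn to 0.16 and 0.23 with total counts. Of 44 DNA repair genes, 27 rose and 8 fell, with a median of 0.89.

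Genes that make ribosomes and charge tRNAs mostly rose, and those of the ribosomal proteins mostly fell under TMM, a direction that turns with total counts. Of 20 aminoacyl-tRNA synthetases, 19 rose and 1 did not pass (median 1.35), among them FARSB by 1.93 ± 0.15. Of 64 nucleolar assembly genes, 58 rose and 1 fell (median 0.76). FBL, the fibrillarin of ribosomal RNA methylation, held 168, 195, 168, 158 and 188 CPM in exposed pools, against 104, 102, 121, 108 and 123 CPM in unexposed pools. Of 79 ribosomal proteins, 78 fell and 1, RPL7L1, rose, none past 2-fold, with a median of -0.64 that turns to 0.20 with total counts. RPS6 was at 1376, 1332, 1331, 1332 and 1346 CPM in exposed and 2222, 1875, 2152, 2016 and 2117 CPM in unexposed pools. The share of all counts in ribosomal proteins was 8.07 to 9.29% in exposed and 7.18 to 8.00% in unexposed pools, so the direction rests on the scale. Of 52 initiation and elongation factors, 30 rose, 10 of those past 2-fold, and 11 fell, 1 of those past 2-fold, with a median of 0.33. Against that role, the elongation factor gene EEF1A1 (ENSDARG00000039502) had 15 counts over the exposed pools and 2095 over the unexposed pools. Its fall does not stand for the role.

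The mitochondrial transcripts divided by role. Of 73 genes of mitochondrial ribosomal proteins, 60 rose and 1 fell (median 0.68), and of 42 genes of import and quality control, 26 rose and 4 fell. LONP1, the matrix protease, held 232, 245, 253, 225 and 255 CPM in exposed mutants, against 31.8, 29.7, 35.9, 27.18 and 47.1 CPM in unexposed mutants. Nuclear genes of the respiratory complexes mostly did not pass, with 10 of 76 up and 24 down (median -0.09, 0.75 with total counts). The share that fell, 31.6%, was near the 30.3% of all tested genes. SDHA of complex II fell by 0.40 ± 0.14, a call lost without unexposed pool 2 (-0.28) and turning to 0.43 with total counts. Of 13 genes on the mitochondrial genome, 12 fell (median -0.97, -0.15 with total counts). MT-ND3 fell by 1.19 ± 0.10 and MT-CO1 by 0.66 ± 0.10, and MT-CO1 turns to 0.17 with total counts.

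Genes of cholesterol synthesis and fatty acid oxidation mostly fell. Of 27 genes of cholesterol synthesis, 20 fell and 4 rose (median -1.54, -0.72 with total counts). In fatty acid oxidation 42 of 52 were down and 6 up (median -0.95, -0.12 with total counts). HMGCS1, an early enzyme of cholesterol synthesis, held 272, 154, 182, 123 and 306 CPM in exposed mutants, against 831, 581, 2030.0, 1632 and 859 CPM in unexposed mutants. It fell by 2.52 ± 0.42 and the lipoprotein receptor ldlra by 2.19 ± 0.30, while srebf2, the factor that drives both, did not pass (-0.23 ± 0.23, edgeR adjusted p = 0.394; with total counts it rose, by 0.59 at an adjusted p of 0.0225). The fatty acid carrier fabp10a fell by 1.90 ± 0.14. CPT1A, which admits fatty acids to mitochondria, held 214, 191, 186, 154 and 234 CPM in exposed pools, against 121, 118, 137, 116 and 113 CPM in unexposed pools. CPT1A rose by 0.69 ± 0.12 in a list that mostly fell (edgeR adjusted p = 4.66e-05). In fatty acid and triglyceride synthesis 15 of 31 fell and 8 rose (median -0.33, 0.50 with total counts). Those are shares of 48.4% and 25.8%, beside 30.3% and 31.5% of all tested genes. The synthase FASN was down by a log2 change of -1.06 ± 0.16 and the elongase ELOVL6 up by 3.50 ± 0.54.

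Bile acid genes fell in part, the rate-limiting step among them. Of 17 tested, 10 fell and 1 rose (median -0.77, 0.06 with total counts). CYP7A1, which starts bile acid synthesis from cholesterol, held 9.31, 15.8, 2.81, 2.23 and 10.1 CPM in exposed mutants, against 234, 199, 310.1, 172 and 246 CPM in unexposed mutants. The fall by 4.85 ± 0.54 left no overlap (edgeR adjusted p = 1.33e-07). The bile salt pump ABCB11 fell by 1.78 ± 0.21, and the bile acid receptor gene NR1H4 did not pass (0.16 ± 0.23, edgeR adjusted p = 0.548).

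Drug metabolism genes mostly fell, with a few isoforms strongly higher. Of 48 cytochromes P450, 36 fell and 4 rose (median -1.62). The enzyme cyp3a65 held 93.3, 215, 59.4, 165 and 71.1 CPM in exposed pools, against 618, 989, 640.1, 631 and 822 CPM in unexposed pools, and CYP1A1, the main target of the aryl hydrocarbon receptor, fell by 2.29 ± 0.26. The P450 gene cyp2x9 fell by 5.68 ± 0.46 (-6.33 without exposed pool 1). Against the list, cyp2aa7 held 33.1, 37.5, 58.7, 126 and 18.01 CPM in exposed pools and 0.425, 1.23, 0.538, 0.690 and 1.01 CPM in unexposed pools. Of 35 conjugation enzymes, 25 fell and 5 rose (median -1.15, -0.33 with total counts). Their share of all counts was higher in every exposed pool, at 0.326 to 0.356%, against 0.239 to 0.263% in unexposed pools. The sulfotransferase sult1st5 rose by 5.22 ± 0.30 and the thiopurine methyltransferase tpmt.1, a small-molecule thiol methylator, by 4.03 ± 0.17. It held 338, 309, 376, 406 and 380.0 CPM in exposed pools, against 25.2, 29.0, 21.4, 19.1 and 16.1 CPM in unexposed pools. UGT1A1, which conjugates bilirubin, fell by 0.77 ± 0.11, which turns to 0.06 with total counts.

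Genes of amino acid breakdown mostly fell, and those of sugar metabolism fell more often than they rose. Of 48 genes of tyrosine, tryptophan and related amino acids, 38 fell and 2 rose (median -1.19). TAT, the first enzyme of tyrosine breakdown, held 409, 482, 330.5, 346 and 314 CPM in exposed pools, against 2989, 3911, 1404, 2385 and 3346 CPM in unexposed pools. TDO2, which opens the tryptophan ring, fell by 3.25 ± 0.18 and AGXT (ENSDARG00000018478), which clears glyoxylate, by 3.43 ± 0.15. One gene listed as HPD, named for the second step of tyrosine breakdown, had 1582 counts over the exposed pools and 22 over the unexposed pools. The entry hpda belongs to the hepatocyte markers, whose 20 tested genes all fell, so the rise does not stand for that step as a whole. Of 59 carbohydrate genes, 31 fell and 13 rose (median -0.61, 0.22 with total counts). The aldolase ALDOC (ENSDARG00000019702), known from brain in mammals, rose by 4.26 ± 0.49. ALDOC held 85.1, 136, 82.6, 108 and 58.2 CPM in exposed pools, against 2.79, 9.45, 2.03, 1.78 and 8.36 CPM in unexposed pools. The glucose-releasing phosphatase g6pc1a.1 fell by 2.01 ± 0.09. Unexposed pool 2 was the highest unexposed pool for the muscle hexokinase HK2, at 2.81 CPM with the other 4 at 0.207 to 0.473. HK2 did not pass with all libraries (log2 change 0.56 ± 0.72, edgeR adjusted p = 0.520) and passed without that pool, at 1.76.

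**Figure D3:**
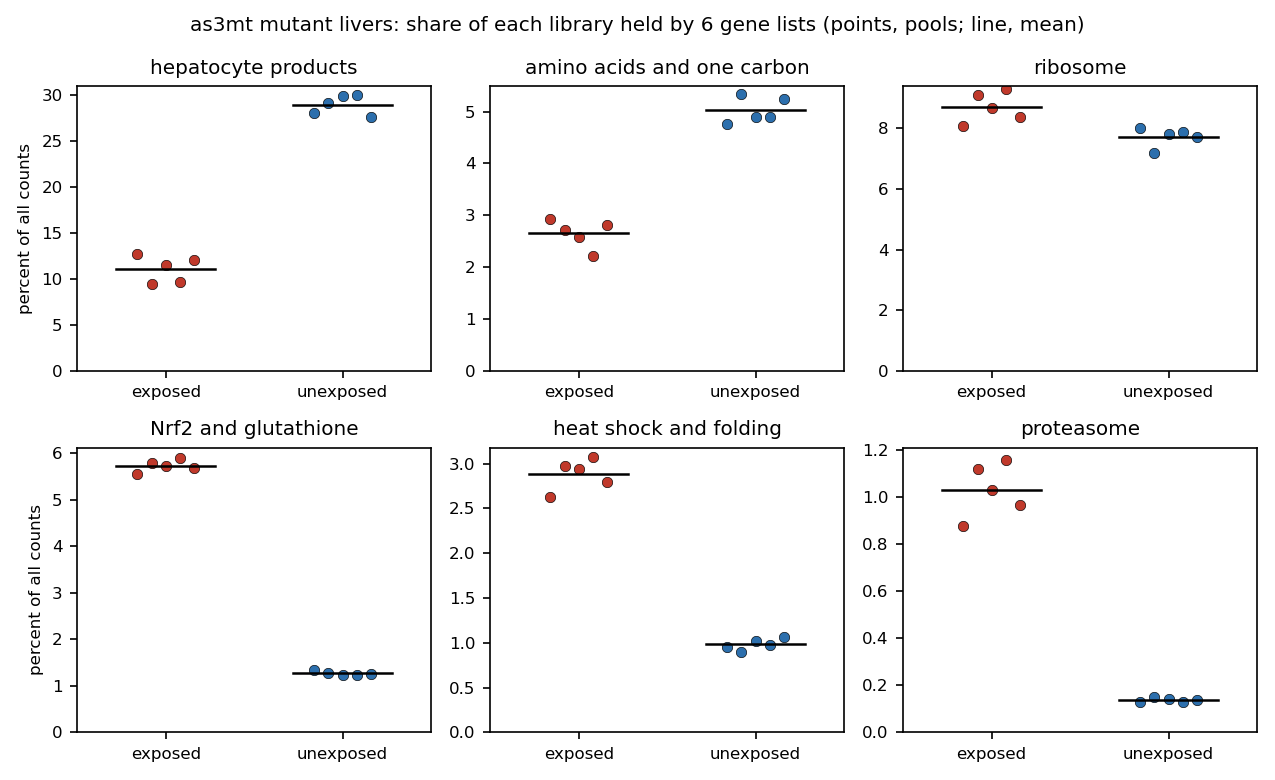
Percent of all counts in each pool held by 6 gene lists, exposed mutants (red, left) and unexposed mutants (blue, right), with the mean as a line. Hepatocyte products took 9.47 to 12.7% of counts in exposed pools and 27.6 to 30.0% in unexposed pools, and the lists of the Nrf2 pathway, heat shock and the proteasome took larger shares in every exposed pool.

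The secreted products of hepatocytes mostly fell. Of 132 tested hepatocyte products, 105 fell and 7 rose (median -1.94, -1.11 with total counts). Together they took 9.47 to 12.7% of counts in exposed pools, against 27.6 to 30.0% in unexposed pools. The high-density lipoprotein protein apoa1b, the most abundant transcript of both groups, held 30749.8, 20207, 27728, 21053 and 29213 CPM in exposed mutants, against 109818, 98310.3, 104596, 96739 and 93822 CPM in unexposed mutants. The lipoprotein component apoc1 held 698, 478, 628, 434 and 852 CPM in exposed pools, against 7480.5, 7703, 8414, 7472 and 7692 CPM in unexposed pools. Each pool of exposed mutants was below every unexposed pool for both genes, with log2 changes of -1.97 ± 0.14 and -3.65 ± 0.25. Of 34 coagulation genes, 24 fell and 3 rose, with the fibrinogen chain FGB at -2.93 ± 0.21 and antithrombin SERPINC1 at -2.47 ± 0.18. Of 34 complement genes, 30 fell and 2, c1qa and CLU, rose, at 16 and 12 counts over the unexposed pools. The pore protein c9 fell by 2.82 ± 0.20 and c3a.1 by 2.31 ± 0.24. A further C3 gene, c3a.4, outside the list, held 759, 791, 827, 1032 and 548 CPM in exposed pools, against 17.8, 19.1, 12.99, 24.1 and 11.3 CPM in unexposed pools. Of 38 plasma carriers and inhibitors, 32 fell and 6 did not pass. Those that fell included the retinol carrier RBP4 by 3.71 ± 0.21 and the thyroxine carrier TTR by 1.87 ± 0.21. The fetuin ahsg1 held 7.98, 4.58, 6.34, 5.24 and 5.86 CPM in exposed pools, against 468, 449, 555, 637 and 615 CPM in unexposed pools. It was the member with the largest fall, by 6.51 ± 0.30.

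Of 34 liver transcription factors, 23 fell and 1 rose (median -0.88, -0.06 with total counts). HNF4A, the nuclear receptor at the head of the hepatocyte programme, held 59.7, 29.2, 30.4, 20.2 and 43.4 CPM in exposed mutants, against 130.1, 117, 147, 124 and 185 CPM in unexposed mutants. KLF15, which drives amino acid breakdown, fell by 2.17 ± 0.17 and PROX1 by 1.38 ± 0.28. CEBPA, another master factor, did not pass (-0.28 ± 0.21, edgeR adjusted p = 0.255; with total counts it rose, by 0.56 at an adjusted p of 0.0179) and overlapped, at 37.8 to 54.2 CPM in exposed and 43.7 to 68.6 CPM in unexposed pools.

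Clock genes mostly fell. Of 32 tested, 22 fell and 6 rose (median -1.59, -0.77 with total counts). Period and cryptochrome repressors were among the falls. PER1 (ENSDARG00000012499) held 13.4, 12.6, 11.2, 11.8 and 16.3 CPM in exposed mutants, against 109.9, 92.3, 114, 82.5 and 139 CPM in unexposed mutants. BHLHE41, another repressor, fell by 3.56 ± 0.22. The activator BMAL1 (ENSDARG00000006791) held 5.70, 5.11, 6.38, 5.59 and 5.02 CPM in exposed pools, against 1.28, 2.02, 2.81, 0.833 and 0.582 CPM in unexposed pools, a rise by 1.90 ± 0.37 (edgeR adjusted p = 1.49e-04). The labels give 1 dissection time for both groups.

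Interferon and antigen presentation genes rose in part and unevenly between pools. Of 26 tested, 13 rose and 1 fell (median 1.14). The ubiquitin-like isg15 held 18.1, 49.5, 55.7, 39.4 and 12.8 CPM in exposed mutants, against 0.425, 0.721, 0.827, 0.373 and 4.62 CPM in unexposed mutants. The class I gene mhc1uba held 1.02, 43.3, 25.2, 23.4 and 0.616 CPM in exposed pools, against 0.615, 0.0361, 0.414, 0.345 and 0.184 CPM in unexposed pools. Exposed pools 1 and 5 were the lowest for both genes, and for mhc1uba they lay near the unexposed pools (log2 change 5.93 ± 1.29, edgeR adjusted p = 4.71e-04). The factor IRF7 did not pass (-0.10 ± 0.33, edgeR adjusted p = 0.800).

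Markers of several cell types of the liver moved with exposure. All 20 hepatocyte markers fell (median -2.42), yet they remained the highest of 12 marker lists, at a mean log2 CPM of 9.55 to 10.24 in exposed and 12.47 to 12.50 in unexposed pools. Of 23 endothelial markers, 21 fell and 1 rose (median -1.31, -0.47 with total counts), and the list mean was 2.01 to 2.19 in exposed and 3.21 to 3.45 in unexposed pools. The receptor kdrl held 28.2, 26.4, 25.6, 24.1 and 31.9 CPM in exposed pools, against 88.5, 81.8, 97.4, 90.1 and 89.0 CPM in unexposed pools. TIE1 fell by 1.86 ± 0.15, and the scavenger receptor stab2 was the one that rose, by 1.51 ± 0.29. Of 21 stellate and matrix markers, 13 fell and 8 did not pass (median -0.95, -0.12 with total counts), with SPARC down by a log2 change of -1.37 ± 0.12. Biliary markers were balanced under TMM, with 3 of 12 up and 3 down (median 0.05, 0.88 with total counts). Their share of total counts was 0.389 to 0.579% in exposed and 0.186 to 0.229% in unexposed pools, without overlap. In bulk libraries, fewer cells of a type and less RNA per cell cannot be told apart.

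Intestine markers took 0.118 to 0.170% of counts in exposed and 0.277 to 0.322% in unexposed pools, and their mean log2 CPM was 3.17 to 3.60 in exposed and 3.78 to 4.18 in unexposed pools, with 2 of 12 up and 6 down. Skin markers took 0.0189 to 0.0276% of counts in exposed and 0.0422 to 0.0495% in unexposed pools. Of 17 tested, 1 was up (5.88%) and 5 down (29.4%, near the 30.3% of all tested genes). Erythroid markers took 0.0201 to 0.0303% in exposed and 0.0137 to 0.0182% in unexposed pools. Of 10 tested, 2 were up (20.0%) and 1 down (10.0%), both below the shares of all tested genes. The 3 lists' shares of total counts did not overlap between groups, and their part in the results was not tested. Under TMM the mean log2 CPM of skin markers overlapped, at 0.46 to 1.64 in exposed and 1.43 to 2.16 in unexposed pools. So did that of erythroid markers, at 1.90 to 2.50 in exposed and 1.79 to 2.29 in unexposed pools. The erythroid median log2 change was -0.34, which turns to 0.49 with total counts. The mean log2 CPM of exocrine pancreas markers was -1.58 to 4.01 in exposed and 0.97 to 5.29 in unexposed pools, and 2 of 19 were called, both down. Their share of counts was 0.00220 to 0.1097% in exposed and 0.00957 to 0.138% in unexposed pools. The carboxypeptidase CPB1 held 22.5, 1.70, 5.77, 9.68 and 0.616 CPM in exposed pools, against 58.9, 14.3, 7.90, 23.2 and 15.5 CPM in unexposed pools, and its call (-1.57 ± 0.67, edgeR adjusted p = 0.0477) was lost when exposed pool 2, 3, 4 or 5 or unexposed pool 1 (-0.92) or 4 was left out, and was -2.42 without exposed pool 1. Macrophage and neutrophil markers gave 2 of 21 up (9.52%) and 5 down (23.8%), both below the shares of all tested genes. Unexposed pool 2 was highest for that list, at a mean log2 CPM of 1.45. That pool also held nearly all of the haptoglobin gene hp, at 231 CPM with the other 4 unexposed pools at 0.248 to 1.53 and exposed pools at 1.15 to 4.55 CPM. It did not pass (-3.92 ± 1.83, edgeR adjusted p = 0.0687), and its estimate was 2.15 without that pool. Without both libraries numbered 1, the hepatocyte product list had 6 up and 102 down of 133, the Nrf2 list 37 up and 22 down of 76, the proteasome list 50 up and 0 down of 55 and the cell division list 75 up and 5 down of 99.

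**Figure D4:**
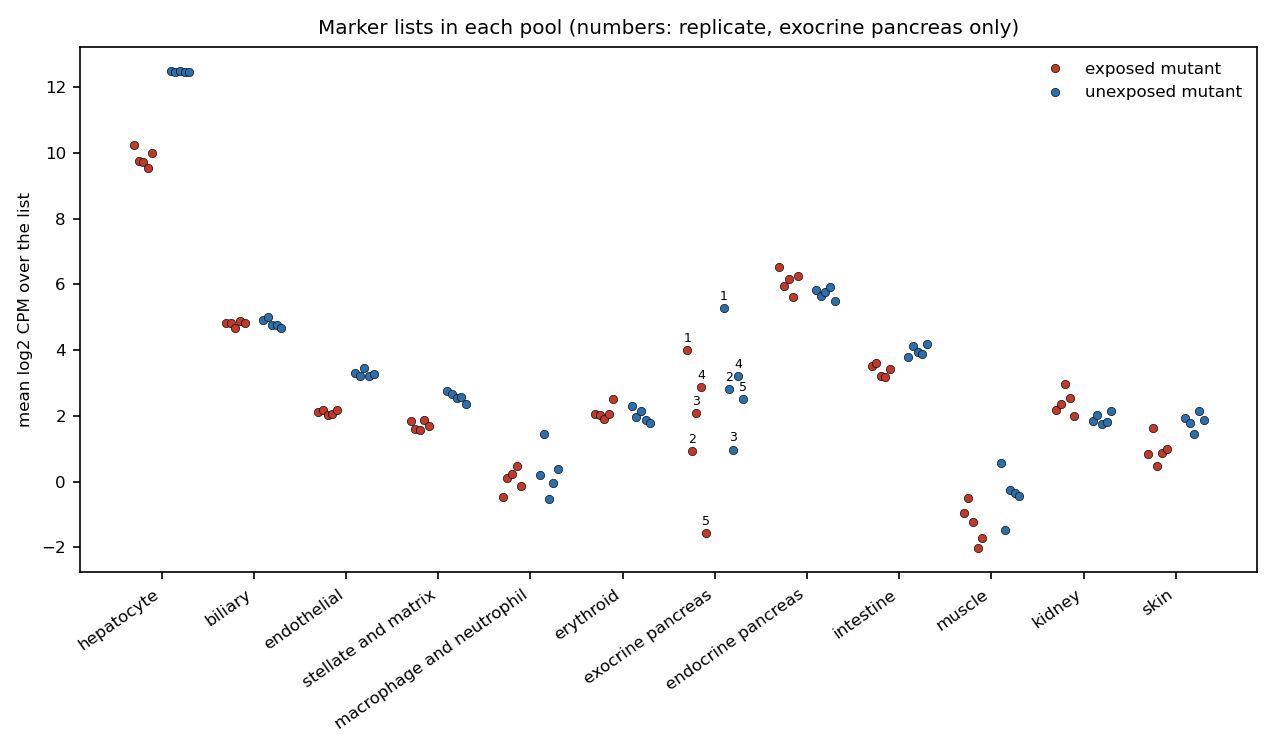
Mean log2 CPM over each of 12 cell type marker lists in the 5 exposed (red, left) and 5 unexposed (blue, right) mutant pools. Hepatocyte, endothelial, stellate and intestine markers are lower in every exposed pool, while exocrine pancreas markers spread widely within both groups, with pool 1 highest in each. The endocrine pancreas list rests on 1 tested gene.

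The mutant response was also tested against that of wild-type livers, as the difference of the 2 log2 changes in one fit. That difference passed for 652 genes, 3.98% of those tested, of which 1.31% had the more positive and 2.67% the more negative change in mutants. Of 622 genes called both for this difference and within mutants, 552 had the same sign and a larger size in mutants, 167 up and 385 down, while 4 were smaller and 66 had an estimate of opposite sign in wild type. Genes not called within mutants are left out of this split, so it favours larger mutant changes. Of all tested genes, 4042 were called up and 3549 down in both genotypes. By contrast, 11 were called down in mutants and up in wild type, and 7 up in mutants and down in wild type. The count of genes passing for the difference was 383 without exposed mutant pool 3 and 405 without exposed mutant pool 4, and 1123 by the DESeq2 Wald test. The hepatocyte products held 32 members with the more negative change and 1 with the more positive, of 132. The proteasome held 14 of 54 with the more positive change, 12 of them among 25 genes of the regulatory particle.

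Among genes with the more positive change in mutants, the difference was 1.77 ± 0.21 for mdm2, which rose by 3.24 ± 0.16 in mutants and by 1.46 ± 0.15 in wild type (edgeR adjusted p = 1.62e-04). The stress-induced nupr1a changed by 2.02 ± 0.17 in mutants and 0.18 ± 0.16 in wild type (difference 1.84 ± 0.23, edgeR adjusted p = 1.62e-04). The ubiquitin ligase RNF14 (ENSDARG00000078683), the secreted phospholipase PLA2G12A, the iron-sulfur assembly factor CIAPIN1 and the sorting protein VPS37A had differences of 1.93 ± 0.38, 1.38 ± 0.17, 1.33 ± 0.14 and 1.32 ± 0.19. CIAPIN1 averaged 252 ± 4.97 CPM in exposed mutants and 286 ± 22.9 in exposed wild type, and 24.7 ± 2.98 CPM in unexposed mutants and 70.15 ± 9.79 in unexposed wild type (SD, n = 5 each). The difference was 1.72 ± 0.45 for c3a.4, a call lost when exposed pool 3 or 4 or unexposed pool 1, 3 or 5 was left out (1.61 to 1.74), and 1.39 ± 0.33 for mat2al, which averaged 67.6 ± 21.3 CPM in exposed mutants, 24.8 ± 3.61 in unexposed mutants, 23.4 ± 7.66 in exposed wild type and 22.5 ± 4.04 in unexposed wild type.

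Among genes with the more negative change in mutants, SOAT2, which esterifies cholesterol, averaged 1.17 ± 1.24 CPM in exposed mutants and 15.6 ± 3.20 in unexposed mutants, against 15.2 ± 15.9 in exposed wild type and 9.66 ± 9.26 in unexposed wild type. It changed by -3.71 ± 0.75 in mutants and 0.66 ± 0.67 in wild type (difference -4.38 ± 0.99, edgeR adjusted p = 0.0168). Without exposed mutant pool 2 the mutant change was -4.65 and the difference -5.31. The apolipoprotein B gene apobb.2 changed by -3.62 ± 0.45 in mutants and -0.28 ± 0.40 in wild type, a difference of -3.34 ± 0.58 (edgeR adjusted p = 0.00302). The transporter SLC16A12 (ENSDARG00000017773), which carries creatine in mammals, had a difference of -3.34 ± 0.43, and GAMT, which makes creatine, one of -1.49 ± 0.20. The channel aqp9b differed by -1.55 ± 0.26, gpx4a by -1.60 ± 0.30, the taurine enzyme CSAD by -1.56 ± 0.35, the carotenoid cleavage enzyme bco2l by -2.73 ± 0.48, and the fetuin ahsg1 by -2.76 ± 0.34. For arsenic handling as a whole 3 of 24 members differed, all with the more negative change, and gsto2 did not (1.11 ± 0.40, edgeR adjusted p = 0.129).

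**Figure D5:**
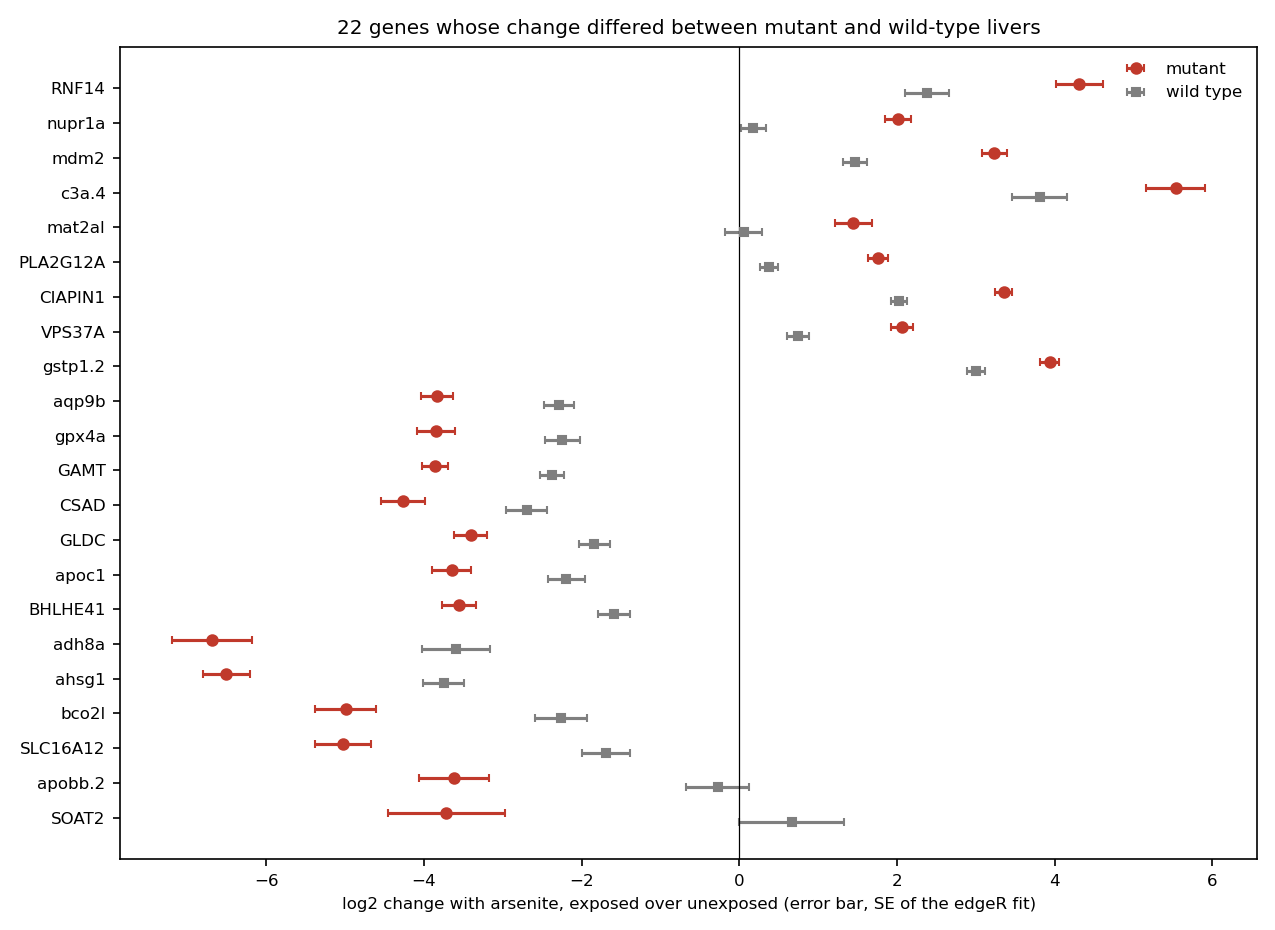
Log2 change with arsenite, exposed over unexposed, in mutant (red circles) and wild-type livers (grey squares) for 22 genes whose change differed between them (edgeR adjusted p under 0.05), with the SE of the fit as bars. Mutant values lie further from 0 than wild-type values for each gene drawn, and SOAT2 has estimates of opposite sign. The 22 were picked by hand from the 42 named genes whose change differed, so that pattern belongs to the choice. Of 622 genes called for the difference and within mutants, 4 changed less in mutants and 66 had estimates of opposite sign.

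Several of the largest changes fell outside these pathways. The lactate exporter SLC16A3 (ENSDARG00000045051) had 20071 counts over the exposed pools and 6 over the unexposed pools. TG, whose human counterpart is the thyroid hormone precursor thyroglobulin, had 12502 counts over the exposed and 4 over the unexposed pools. Exposed pools held 47.6, 41.6, 47.9, 50.2 and 43.6 CPM of TG, with the lowest and highest close together. Among the falls, the lens-family crystallin crybb1l3 held 0.226, 0.0165, 0.229, 0.0950 and 0.198 CPM in exposed pools, against 19.3, 14.1, 57.9, 42.5 and 40.2 CPM in unexposed pools. The heme carrier hpxa fell by 6.34 ± 0.66, the complement regulator relative cfhl3 by 5.18 ± 0.44, and eevs, an enzyme of the fish sunscreen compound gadusol, by 5.15 ± 0.73 (-5.88 without exposed pool 2).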

How the data were processed

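Poly(A) RNA of pooled larval livers was sequenced in 20 libraries, of which the 10 mutant libraries are described here. The authors deposited raw counts of reads per gene, per the files whole numbers under Ensembl gene identifiers. The submitters' processing notes name Trimmomatic 0.36, FastQC 0.11.5 and the genome build GRCz10. The aligner, the counter, its strand setting and the annotation are not given in the sources used here, and the labels and the design text name different library kits, one of them directional, so overlapping and antisense genes cannot be told apart. Symbols were matched for 26269 of 32105 identifiers, and 4144 shared their symbol with another and are printed with the identifier where named.

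Counts were tested with edgeR 4.0.16 in R 4.3.3 (filterByExpr, TMM, quasi-likelihood fit with 4 group means over all 20 libraries, 2-sided, Benjamini-Hochberg over 16389 genes, called at an adjusted p under 0.05). The response was the contrast of exposed over unexposed mutants, and its difference from wild type the contrast of both responses. Total counts of 27505029 to 41248978 per mutant library set the precision, and counting error is least for abundant genes. Same-numbered exposed and unexposed mutant libraries had correlations of deviations of 0.05 to 0.19, and those of other numbers -0.15 to 0.12. By the rule set, that all same-numbered pairs be over 0.1, the numbers were not taken to pair them. Yet 8 of 10 libraries in each genotype correlated best with their own number, so the unblocked fit may leave out a shared factor. Alternatives were DESeq2 1.42.0, other scalings and filters, fewer libraries and a replicate block. Counts were also simulated with equal exposed and unexposed means except in the genes changed, as many up as down. With 15511 genes tested, the mutant contrast recovered 66 of 100 genes changed by 1 and 94 of 100 changed by 2 on the log2 scale. It called 5 unchanged genes. Far fewer genes changed there than the 61.8% called in the data, so recovery and false calls under so broad a change were not measured.

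The groups compared and the gene lists (1992 of 2158 entries matched) were chosen with earlier results of these data known. Lists are described by counts and medians, without a set test. Named genes are as3mt, the 12 largest changes each way at a mean of at least 10 CPM without overlap, the 3 smallest adjusted p each way per role, marked list members whatever their value, the 10 largest differences of response each way, and the 6 smallest adjusted p each way, of which those that illustrate a role are printed. No sequences are printed. Promoter motifs were not analysed here. Figures were drawn with matplotlib 3.10.9.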

Additional observations from a re-analysis of the deposited data

Results flagged for a closer look

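In 20 of 358 groups of 5 pools, 1 pool lay far from the other 4 by Dixon's test at 0.71. For independent and normally spread values chance flags about 1 group in 20, here 17.9. The groups share pools and some hold genes near 0, so that number is a rough guide. Unexposed pool 5 held 7 of the 20 flags, the most of any pool. The highest pool was exposed pool 1 for BAG3 at 11.2 CPM with the other 4 at 8.05 to 8.75 and cyp2x9 at 3.06 CPM with the other 4 at 0.401 to 1.03. Exposed pool 2 was the highest for GLDC at 46.2 CPM with the other 4 at 20.2 to 26.0 and SOAT2 at 3.38 CPM with the other 4 at 0.554 to 0.665. Exposed pool 4 was the highest for SRXN1 at 2.31 CPM with the other 4 at 1.66 to 1.80. The highest pool was unexposed pool 1 for HSPA8 (ENSDARG00000037403) at 0.709 CPM with the other 4 at 0.108 to 0.276. Unexposed pool 2 was the highest for HK2 at 2.81 CPM with the other 4 at 0.207 to 0.473 and hp at 231 CPM with the other 4 at 0.248 to 1.53. The highest pool was unexposed pool 2 also for eevs at 984 CPM with the other 4 at 158 to 382. Unexposed pool 2 was the lowest for TTR at 1678 CPM with the other 4 at 1866 to 1918. The highest pool was unexposed pool 3 for PGD at 127 CPM with the other 4 at 96.8 to 101 and apoc1 at 8414 CPM with the other 4 at 7472 to 7703. Unexposed pool 4 was the highest for SLC40A1 at 59.11 CPM with the other 4 at 12.3 to 25.7. The highest pool was unexposed pool 5 for AHCY at 4607 CPM with the other 4 at 4026 to 4130.0 and MTHFD1L at 12.6 CPM with the other 4 at 0.0862 to 0.166. Unexposed pool 5 was also the highest for slc7a11 at 0.613 CPM with the other 4 at 0 to 0.0721 and hsp70l at 0.184 CPM with the other 4 at 0. The highest pool was unexposed pool 5 also for CCNG1 at 485 CPM with the other 4 at 309.9 to 343 and FARSB at 44.2 CPM with the other 4 at 28.1 to 31.7. Unexposed pool 5 was also the highest for isg15 at 4.62 CPM with the other 4 at 0.373 to 0.827.

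The arsenite response of 42 of the genes named differed between mutant and wild-type livers (edgeR adjusted p under 0.05). The test was that of the difference of log2 changes. Some of these genes were named because their differences were among the largest, so the count cannot be compared with the share of all tested genes. The change was more positive in mutants, as the log2 difference in parentheses, for RNF14 (ENSDARG00000078683) (1.93), nupr1a (1.84), mdm2 (1.77), c3a.4 (1.72), mat2al (1.39), PLA2G12A (1.38), CIAPIN1 (1.33) and VPS37A (1.32). It was likewise more positive for gstp1.2 (0.93), ATG14 (0.87), PSMD1 (0.77), PGD (0.74), BAX (0.71) and AIFM2 (0.64). The change was more negative in mutants for SOAT2 (-4.38), SLC16A12 (ENSDARG00000017773) (-3.34), apobb.2 (-3.34), adh8a (-3.10), ahsg1 (-2.76), bco2l (-2.73), cfhl3 (-2.38) and BHLHE41 (-1.97). Next in size among these were gpx4a (-1.60), BAG3 (-1.58), GLDC (-1.57), CSAD (-1.56), aqp9b (-1.55), GAMT (-1.49), apoc1 (-1.46) and AGXT (ENSDARG00000018478) (-1.35). Smaller negative differences were those of diabloa (-1.33), PER1 (ENSDARG00000012499) (-1.30), FGB (-1.21), RBP4 (-1.15), BHMT (-1.02), TDO2 (-1.01), SERPINC1 (-0.93) and MAT2A (ENSDARG00000040334) (-0.91). A further group was pck2 (-0.91), KLF15 (-0.88), g6pc1a.1 (-0.74) and kdrl (-0.58). Genotype and strain differ together between these livers and cannot be told apart. Of these calls, those of MAT2A (ENSDARG00000040334), BHMT, PGD, BAG3, PSMD1, ATG14, pck2, BAX, diabloa, SERPINC1, c3a.4, KLF15 and kdrl were lost without at least 1 of the mutant pools. Several did not hinge on a single pool. The call of PSMD1 was lost without exposed pool 2, 3, 4 or 5 or unexposed pool 1, 3, 4 or 5. That of pck2 was lost without exposed pool 2, 3 or 4 or any unexposed pool.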

How the results depend on the processing

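The counts of called genes kept within 1.5 times of their values under DESeq2 size factors, the DESeq2 Wald test, all genes with at least 1 count, the 10 mutant libraries alone and robust dispersions, except that the DESeq2 Wald test called 1123 genes for the difference of responses. With a filter at a mean of at least 10 CPM, 5066 genes were called, 2649 up and 2417 down, and past 2-fold 1011 up and 1245 down; fewer genes were tested. With library sizes from total counts alone, 9842 genes were called up and 1962 down, and past 2-fold 6954 up and 1209 down. That scaling shifts the median of all genes by 0.83 and turned the sign of NQO1 (0.17), BECN1 (0.41), MCM5 (0.16), MCM2 (0.23), RPS6 (0.21), SDHA (0.43), MT-CO1 (0.17), srebf2 (0.59), UGT1A1 (0.0598) and CEBPA (0.56). Leaving out 1 mutant pool at a time gave 9669 to 9911 called genes, 4931 to 5092 up, 4720 to 4851 down, 2596 to 2779 up and 2918 to 3059 down past 2-fold, log2 changes of -2.63 to -2.35 for as3mt, and 383 to 742 genes for the difference of responses, of which 383 was without exposed pool 3 and 405 without exposed pool 4; the cause was not tested. With a replicate block, 10282 genes were called, 5263 up and 5019 down, and 901 for the difference, against 652 without it. The labels do not say what the number marks, and 8 of 10 mutant and 8 of 10 wild-type libraries correlated best with their own number. Without both pools numbered 1, an alternative chosen after seeing the data, the list counts are those given above. Low counts limit genes such as hsp70l, TG and SLC16A3 in unexposed pools, for which counts and no fold are printed.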

Other observations

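Genes of inflammation, not described above, gave 8 rises and 5 falls among 26 tested (median log2 change 0.41), shares of 30.8% and 19.2% beside 31.5% and 30.3% of all genes, so the share that rose was near that of all genes. Among them nfkb2, which encodes the NF-kappaB precursor of the non-canonical pathway, held 53.1, 83.2, 86.9, 135 and 30.5 CPM in exposed mutants, against 9.60, 9.88, 7.45, 8.65 and 8.12 CPM in unexposed mutants. Its partner relb held 19.0, 22.7, 28.8, 34.3 and 16.8 CPM in exposed pools, against 3.64, 5.59, 5.38, 6.95 and 5.76 CPM in unexposed pools. Both genes separated the groups in every pool, and exposed pool 4 was highest and pool 5 lowest for both (log2 changes 3.15 ± 0.44 and 2.15 ± 0.27, edgeR adjusted p = 3.47e-06 and 6.72e-07). NFKBIZ, a nuclear inhibitor relative, fell by 1.22 ± 0.20 and the cytokine brake SOCS3 (ENSDARG00000026611) by 0.98 ± 0.29, with overlapping pools for SOCS3.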
